A study of Mus musculus with 6 samples.

Results

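Homeobox, paired box, Sox and T-box genes encode DNA-binding proteins that set the identity of cells and of body regions. The genes described here were all those measured by a probe set that the platform annotation assigns to exactly 1 gene, with a symbol beginning with Hoxa, Hoxb, Hoxc, Hoxd, Msx, Dlx, Pax, Lhx, Meis, Pbx, Tbx, Sox, Rhox or the name of the sine oculis homeobox family (as in Six5), followed by a digit. This gave 86 genes on 115 probe sets, out of 8251 genes on 10833 probe sets. The symbols Dlx1as, Dlx6os2 and Hoxa11os (5 probe sets) meet the rule although they name RNAs of the opposite strand and not transcription factors, so that 83 genes on 110 probe sets remained as coding members. Another 3 probe sets assigned to several genes of these families were left out.

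The arrays measured RNA of thoracic mammary glands from 16-week-old virgin females, F1 offspring of CF-1/FVB stock. The compared groups were wild type mice and LH transgenic mice, in which a transgene raises luteinizing hormone (LH), a pituitary hormone that stimulates steroid synthesis by the ovary. Each group had 3 Affymetrix arrays, and every array carried the pooled RNA of 3 mice, 9 mice per group. Which promoter drives the transgene is not given in the labels, which also name no batch and no pairing.

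Homeodomain proteins bind short AT-rich DNA sites and often act with partners of the Meis and Pbx families. Hox genes lie in clusters in which the order of the genes follows their position of expression along the body axis, and paralogs are the genes with the same number in different clusters. Sox proteins bind DNA through an HMG box: Sox7, Sox17 and Sox18 form the endothelial subgroup, and Sox10 marks neural crest derivatives and also mammary epithelial progenitors. In mice, Tbx3 and Msx2 are needed for the embryonic mammary bud, and combined loss of Hoxa9, Hoxb9 and Hoxd9 impairs the gland in pregnancy.

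The deposited values are MAS5 signals on a linear scale, scaled to trimmed means of 1500.8 or 1500.9, with array medians of 540.6 to 583.5. Each difference is given in log2(signal + 80.0) units, above 0 where the LH transgenic glands were higher, and was tested with limma on the 7453 probe sets whose mean over the 6 arrays was at least 336.0, and a probe set is called at a Benjamini-Hochberg adjusted p under 0.05. Fat cell, endothelial and skeletal muscle markers fell in 9 of 11, 11 of 13 and 8 of 21 tested probe sets, and luminal epithelial markers rose in 7 of 14. None of the 6 probe sets of ovary markers passed the filter, and 12 of 12 luminal marker genes were measured. In whole tissue, fewer cells of a type and less RNA per cell cannot be told apart. LH transgenic pool 3 differed from pools 1 and 2 in its skeletal muscle level, which was 0.53 above the mean of the 6 arrays, beside 0.58 to 0.74 in the wild type pools and -1.40 and -1.08 in LH transgenic pools 1 and 2.

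Most of these genes were not above the main background level in the adult gland. Background was set at a signal of 312.4, the 90th percentile of 24 probe sets for genes of the Y chromosome, photoreceptors, sperm and olfactory neurons, which a female mammary gland should lack. Of the 24, 1 for Tnp1 (group means 2478 and 3074) and 1 for Odf1 (398.4 and 343.1) passed the filter of the test and raise this level. A probe set counted as above background in a group where all 3 arrays exceeded that level. By this measure 34 of 115 probe sets (29.6%, 28 genes) were above background in 1 group or both, against 59.7% of all probe sets, and 58 genes were not. Of the 34, 22 were above background in both groups. Another 9 were so in wild type only (Hoxa5, Hoxc5, Hoxc8, Lhx6, Lhx8, Meis3, Six5 and 1 probe set each of Sox17 and Tbx2) and 3 in LH transgenic glands only (Rhox5 and 1 probe set each of Pbx3 and Tbx15). Those of Pbx3 and Tbx15 exceeded background on 2 wild type arrays as well. Their means were 395.1 and 395.9 in wild type and 346.8 and 389.1 in LH transgenic glands, so they were not higher there. Likewise Hoxc8, Lhx8 and Six5 exceeded background on 2 LH transgenic arrays.

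The families differed in how many probe sets reached this level. Sox had 12 of 22, Pbx 3 of 4, and the Hox clusters 9 of 40, all of them in paralog groups 4 to 8. None of the 12 coding Hox probe sets of paralog groups 9 to 13 and none of the 6 of groups 1 to 3 was above background. None of 9 Dlx probe sets reached it, and 1 of 9 Pax probe sets did, as did that of Six5 out of 8 of its family. With the background at 129.7, the 75th percentile of the same silent genes, 63 of the 115 probe sets were above it. That most were not above background therefore holds at the level of 312.4 and not at this lower one. The share of all probe sets above the lower level is not given here.

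The filter of the test passed 33 of the 115 probe sets (27 genes), of which 11 were called. These were 3 higher (9.09%, where 10.5% of all tested probe sets were called higher) and 8 lower (24.2%, against 10.8%). Together they made 33.3% of the members tested, beside 21.3% of all 7453. The median difference of the 33 was -0.26, and that of all tested probe sets 0.02. For 7 of the 33 only 1 group mean reached the filter (1 probe set each of Hoxa6, Hoxc6, Hoxc8, Lhx6, Meis3, Rhox5 and Sox17), so their testing depended on the brighter group. Just inside the filter lay Hoxc6 (mean 338.2) and Meis3 (351.8), and just outside it Hoxc5 (319.6) and Tbx2 (318.3).

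Higher in the LH transgenic glands were Rhox5 and 1 of 2 probe sets each of Sox4 and Sox10. Lower were Sox18 and Hoxd8 with both probe sets, 1 of 2 probe sets of Sox17, and Hoxc8, Sox7 and Lhx6. Without wild type pool 1, 4 members were called higher and 4 lower, and the calls over all probe sets went from 1586 to 1061. Without LH transgenic pool 1, 5 members were called lower, and 1141 of all probe sets were called in either direction. When the fit included each array's skeletal muscle level, which left 3 residual degrees of freedom, 1 member was called higher and 3 lower, and the calls over all probe sets went from 1586 to 741.

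**Figure D1:**
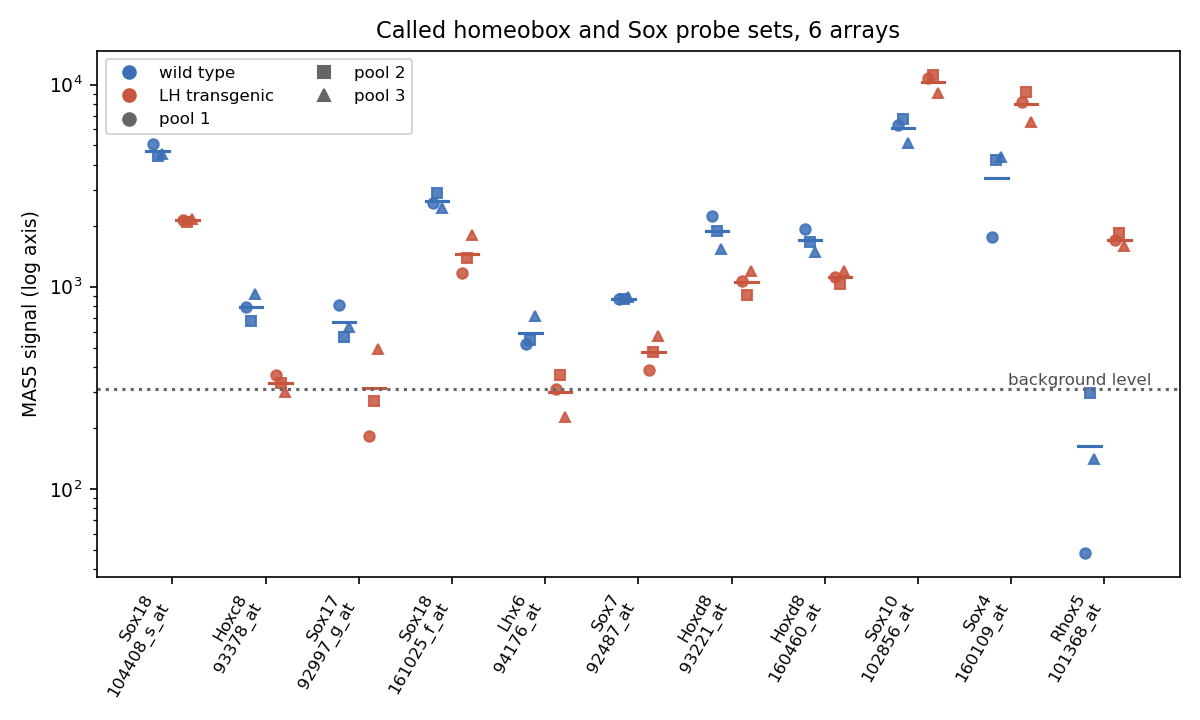
MAS5 signal (log axis) of the 11 called probe sets on the 6 arrays, ordered by log2 difference, with blue wild type and red LH transgenic arrays, marker shapes for the pools, short lines for group means and a dotted line at the background level of 312.4. The groups do not overlap for any of the 11, which held for 31.4% of all probe sets but controls. The 11 were picked by a test of this difference, so the separation adds no evidence to it. Rhox5 lies below background on all 3 wild type arrays.

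Among all 115 probe sets, tested or not, 43 had signals without overlap between the groups (37.4%, against 31.4% of all probe sets but controls). In 29 of these the LH transgenic arrays were lower (25.2%, against 15.0%), and in 14 they were higher (12.2%, against 16.4%). The median difference over the 115 was -0.07. When the test was run without the filter, 15 members were called (13%, against 10.8% of 12422 probe sets), 5 of them higher and 10 lower, where 4.99% and 5.77% of all probe sets were called higher and lower. Those called only there were Hoxd10 and Hoxd12, higher, and Hoxb5, Msx2, Meis2 and 1 probe set of Tbx15, lower. Apart from 581.5 for Hoxb5 in wild type pool 1 and 436.4 for Hoxd10 in LH transgenic pool 3, their signals lay near or under the background level. The order of values at that level is uncertain.

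**Figure D2:**
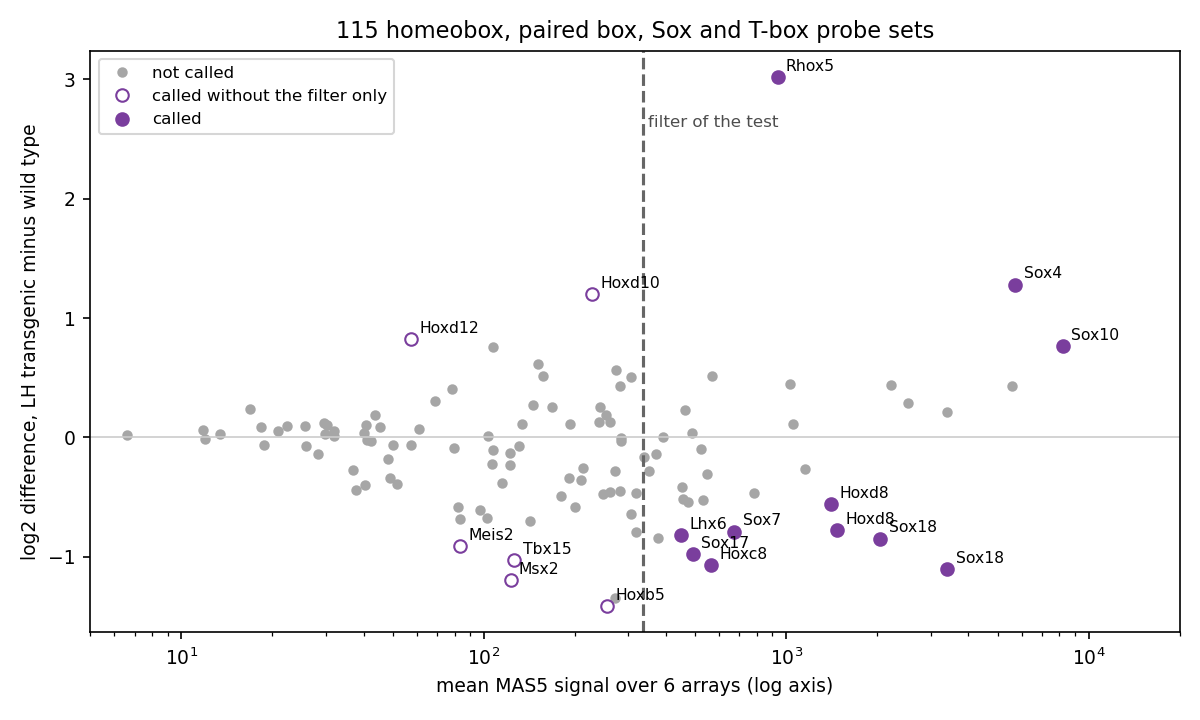
Log2 difference (LH transgenic minus wild type) of the 115 probe sets against their mean MAS5 signal over 6 arrays (log axis). Filled purple points were called, open purple points were called only without the filter at 336.0 (dashed line), and grey points were not called. Rhox5 is the highest point and Hoxb5 the lowest.

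Rhox5, formerly Pem, is a homeobox gene of the X chromosome known from mouse placenta, testis and epididymis. It had the largest difference of the 115 probe sets. Its signals were 48.3, 298.0 and 140.5 in wild type pools 1 to 3 and 1700.3, 1844.1 and 1582.2 in LH transgenic pools 1 to 3. All LH transgenic arrays were far above all wild type arrays, and none of the wild type arrays reached the background level. The means were 162.3 ± 126.3 and 1709 ± 131 (SD, n = 3 each), and because wild type was below background the signal was at least 5.46-fold higher. The difference was 3.02 (SE 0.34, 95% interval 2.27 to 3.77, adjusted p 0.00056 by limma). The call held under each of the 16 other settings that gave a value, with differences from 2.09 to 3.75. Its neighbour in the same X-linked family, Rhox6, stayed at or under 32.8 throughout and was not tested.

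Promoter sequences are shown for Rhox5, for Sox4, the other gene with a difference over 1 among those called higher, and for Hoxd8 and Hoxd10, genes of one cluster whose probe sets differed in opposite directions. They are RefSeq windows of 300 bases, 250 before and 50 after the annotated start, of the GRCm38.p6 assembly, written 5′ to 3′ on the gene's strand. Capitals mark the CCAAT box, a common promoter element, in either orientation (CCAAT or ATTGG), where overlapping matches run together. It was found 3 times in Rhox5 (chrX:37754358-37754657, plus strand), 4 times in Sox4 (chr13:28953650-28953949, minus strand), and once each in Hoxd8 (chr2:74704365-74704664, plus strand) and Hoxd10 (chr2:74691641-74691940, plus strand).
Rhox5: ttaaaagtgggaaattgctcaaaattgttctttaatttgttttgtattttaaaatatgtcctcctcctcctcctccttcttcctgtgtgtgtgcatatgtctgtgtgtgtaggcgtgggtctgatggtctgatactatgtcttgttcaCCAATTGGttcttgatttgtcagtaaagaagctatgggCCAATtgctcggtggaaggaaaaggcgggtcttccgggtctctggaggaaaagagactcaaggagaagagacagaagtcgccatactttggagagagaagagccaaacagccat
Sox4: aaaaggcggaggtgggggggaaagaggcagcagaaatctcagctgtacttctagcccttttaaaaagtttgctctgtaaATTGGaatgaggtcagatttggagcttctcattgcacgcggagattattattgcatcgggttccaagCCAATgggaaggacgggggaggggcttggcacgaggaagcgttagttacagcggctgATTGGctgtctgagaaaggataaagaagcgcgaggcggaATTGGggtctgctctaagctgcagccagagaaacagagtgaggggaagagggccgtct
Hoxd8: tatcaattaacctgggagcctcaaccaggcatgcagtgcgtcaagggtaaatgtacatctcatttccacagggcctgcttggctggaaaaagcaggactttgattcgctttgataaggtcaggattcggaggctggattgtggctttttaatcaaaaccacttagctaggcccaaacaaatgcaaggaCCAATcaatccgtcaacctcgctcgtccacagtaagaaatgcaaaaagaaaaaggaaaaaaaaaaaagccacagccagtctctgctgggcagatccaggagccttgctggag
Hoxd10: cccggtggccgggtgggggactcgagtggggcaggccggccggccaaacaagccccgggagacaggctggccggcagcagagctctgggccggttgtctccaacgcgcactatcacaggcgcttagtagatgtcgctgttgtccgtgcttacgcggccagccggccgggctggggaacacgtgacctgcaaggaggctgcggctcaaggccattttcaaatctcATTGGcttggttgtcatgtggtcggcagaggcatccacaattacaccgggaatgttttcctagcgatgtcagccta
At least 1 CCAAT or ATTGG occurs in 37.4% of all 32851 promoter windows and in 53.5% of the 71 windows found for 57 of the 86 genes. The Rhox5 window holds 5 CG dinucleotides and the Hoxd8 window 6, near the median of 7.0 over all windows, whereas the Sox4 window holds 12 and the Hoxd10 window 22, beside a median of 15.0 for the windows of these families. A match says that the letters occur in the window and nothing about binding.

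The endothelial Sox genes were lower in the LH transgenic glands. Sox18, a regulator of blood and lymphatic vessel formation, had signals of 5091.6, 4442.0 and 4519.9 in wild type pools 1 to 3 and 2127.5, 2082.7 and 2173.5 in the LH transgenic pools on its first probe set (104408_s_at). The groups were separated by a wide gap, and the LH transgenic pools lay close together. The means were 4684 ± 355 and 2128 ± 45.4, a fall by 1.11 on the log2 scale (SE 0.12, adjusted p 0.000537). Its second probe set (161025_f_at) gave 2590.0, 2901.6 and 2436.9 against 1162.9, 1382.4 and 1802.4. It fell by 0.85 (SE 0.17, adjusted p 0.00796), with LH transgenic pool 3 the nearest to wild type, and this call was lost when the skeletal muscle level entered the fit (difference -0.47, adjusted p 0.139).

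Sox7, which acts with Sox18 in vessels, had 865.3, 865.2 and 887.1 in wild type pools 1 to 3 and 385.2, 473.3 and 568.5 in LH transgenic pools 1 to 3. The wild type pools were nearly equal and all LH transgenic pools were lower. It fell by 0.79 (SE 0.18, adjusted p 0.0123), and had -0.52 (adjusted p 0.191) with the muscle covariate. Sox17, a regulator of arterial endothelium and endoderm, was measured by a pair of probe sets that were made from one sequence record and disagreed. On the first (92997_g_at) it had 812.3, 560.8 and 629.2 against 182.0, 272.0 and 490.0, and fell by 0.98 (SE 0.29, adjusted p 0.038). The groups did not overlap there, but the call was lost under 7 of 16 other settings, among them leaving out any array but LH transgenic pool 3 (differences -0.72 to -1.09, adjusted p 0.0566 to 0.132), the test without the filter (adjusted p 0.0811) and the muscle covariate (-0.31, adjusted p 0.571). On the second (92996_at) the signals were 1733.5, 1210.8 and 867.6 against 760.4, 1042.5 and 1283.3, which overlap (-0.26, adjusted p 0.509).

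Most endothelial markers moved with these genes. Of 13 tested probe sets of endothelial genes such as Tie1, Emcn and Cdh5, 11 fell and none rose, with a median difference of -0.87. The 2 not called were those of Pecam1 (0.12, adjusted p 0.698) and Tek (-0.64, adjusted p 0.0805). The mean level of the 13 was 0.35 to 0.58 above the mean of the 6 arrays in wild type and 0.35 to 0.58 below it in LH transgenic glands. The summed signal of the list was 38525 to 45476 against 17740 to 20898. Sox18, Sox7 and the marker list each separated the groups, and their part in one another was not tested.

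**Figure D3:**
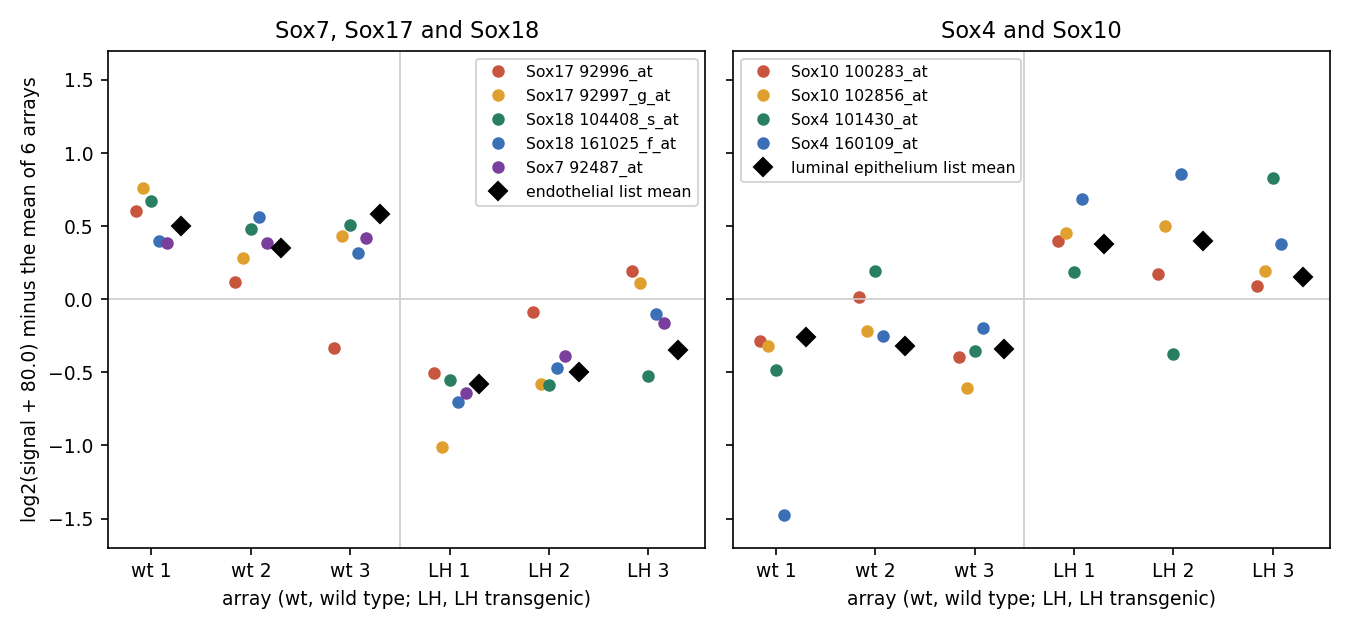
Levels per array as log2(signal + 80.0) minus the mean of the 6 arrays, for Sox7, Sox17 and Sox18 with the endothelial marker list (left) and for Sox4 and Sox10 with the luminal epithelial list (right). Coloured points are probe sets and black diamonds are list means. The endothelial diamonds lie above 0 in wild type and below 0 in LH transgenic arrays, and the luminal diamonds the other way round.

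Sox10 and Sox4 were higher. Sox10 had signals of 6305.6, 6771.5 and 5147.7 in wild type pools 1 to 3 and 10819.7, 11196.7 and 9048.5 in LH transgenic pools 1 to 3 on its first probe set (102856_at). Every LH transgenic pool exceeded every wild type pool, and it rose from 6075 ± 836 to 10350 ± 1147 (log2 0.76, SE 0.14, adjusted p 0.00592). Its second probe set (100283_at), with 1774.1, 2197.0 and 1635.5 against 2897.4, 2456.7 and 2324.9, did not overlap either but was not called (0.44, SE 0.15, adjusted p 0.0706). The call of the first was lost with the muscle covariate (0.59, adjusted p 0.0963) and with the bacterial hybridisation controls as the scale (0.08). On that scale the second probe set had -0.22, and the median of all tested probe sets was -0.62. Sox10 was not tested against that median.

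Sox4, a factor of progenitor cells in many tissues, had 1762.6, 4227.5 and 4382.4 in wild type pools 1 to 3 and 8155.1, 9192.3 and 6559.8 in LH transgenic pools 1 to 3 on probe set 160109_at. Wild type pool 1 was far below the other wild type pools, and the groups did not overlap. It rose by 1.28 (SE 0.31, adjusted p 0.0164), or by 0.86 (adjusted p 0.0156) without wild type pool 1. The call was lost without LH transgenic pool 1 (1.26, adjusted p 0.0572), without LH transgenic pool 2 (1.17, adjusted p 0.0532) and with the muscle covariate (1.02, adjusted p 0.199). The second Sox4 probe set (101430_at) gave 3752.9, 6066.0 and 4112.8 against 6045.6, 4062.1 and 9467.2, which overlap, and was not called (0.43, 95% interval -0.21 to 1.07, adjusted p 0.32).

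Luminal epithelial markers were higher in the same arrays: 7 of 14 tested probe sets rose and none fell (median 0.56), and their summed signal was 79985 to 86075 in wild type and 115234 to 135699 in LH transgenic glands. Basal epithelial markers did not share a direction: among 7 tested probe sets, 2 rose, 2 fell and 3 were not called (median -0.19). Krt17 gave both a rise (0.93) and a fall (-1.37) on different probe sets. The summed signal of the basal list was 16843 to 20835 in wild type and 22301 to 25085 in LH transgenic glands, higher without overlap. Its Acta2 probe set had means of 8900 and 14010. Sox10 is also made by Schwann cells and melanocytes. Of the 11 probe sets of those cells' markers, 3 were tested, and 1 of them, for the myelin protein gene Pmp22, fell (-1.40, adjusted p 0.000592) while none rose. The other 2 tested, both of Mbp, were not called (-0.07, adjusted p 0.814, and -0.67, adjusted p 0.131). The summed signal of the 11 was 8468 to 9892 in wild type and 4361 to 5244 in LH transgenic glands. Pmp22 alone had means of 5619 and 2103, so the lower sum does not show a fall shared by these markers. The part of these cells in the Sox10 difference was not tested.

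Other Sox genes were not called. Sox13 had 3148 ± 204 and 3655 ± 181 (0.21, adjusted p 0.256, no overlap), Sox15 421.1 ± 66.7 and 502.6 ± 16.5 (0.23, adjusted p 0.429), and the tested probe set of Sox3, a gene of the X chromosome, 483.2 ± 106.8 and 489.7 ± 35.2 (0.03, adjusted p 0.932). The Sox3 probe sets did not give a common level, as the other 3 lay below the filter. The 10 Sox probe sets below the filter, of Sox1, Sox2, Sox3, Sox5, Sox6 and Sox11, had signals of at most 293.0 on any array. Among them Sox5 had 58.7 ± 27.9 and 155.6 ± 53.6, and Sox11 222.4 ± 3.4 and 136.6 ± 27.3 on its brighter probe set, neither called without the filter. Sox9 was not analysed here.

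The Hox genes of the middle of the clusters were lower in several cases, and Hoxc8 and Hoxd8 passed the test. Hoxc8, a gene of the trunk that in mouse embryos also influences where mammary placodes form, had signals of 794.8, 674.1 and 916.1 in wild type pools 1 to 3 and 367.3, 333.9 and 301.2 in LH transgenic pools 1 to 3. Every LH transgenic array was below every wild type array, and 2 of 3 LH transgenic arrays stayed above background. Hoxc8 fell from 795.0 ± 121.0 to 334.1 ± 33.1 (log2 -1.07, SE 0.19, adjusted p 0.004). The call held under each of the 16 other settings that gave a value (-0.76 to -1.66).

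Hoxd8 was measured by 2 probe sets made from different sequence records, and both fell. Probe set 93221_at had 2237.3, 1887.5 and 1527.3 in wild type pools 1 to 3 and 1071.1, 905.1 and 1194.0 in LH transgenic pools 1 to 3, and fell by 0.78 (SE 0.17, adjusted p 0.0124). Probe set 160460_at had 1935.5, 1666.8 and 1478.3 against 1120.4, 1028.3 and 1200.7, and fell by 0.56 (SE 0.15, adjusted p 0.025). All LH transgenic signals lay below all wild type signals in both. The first lost its call without wild type pool 1 (-0.65, adjusted p 0.0515) and with the muscle covariate (-0.61, adjusted p 0.158). The second lost it without wild type pool 1 or 2 or LH transgenic pool 1 or 2 (-0.47 to -0.57, adjusted p 0.0655 to 0.101) and with the muscle covariate (-0.46, adjusted p 0.207).

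Hoxb6, Hoxb7 and Hoxb8 were not called. The paralog Hoxb8, on probe set 96418_r_at, had 1045.3, 786.9 and 760.1 in wild type pools 1 to 3 and 1154.5, 1190.3 and 1244.3 in LH transgenic pools 1 to 3 (0.45, SE 0.16, adjusted p 0.0752), without overlap but not called. It was called without wild type pool 1 (0.58, adjusted p 0.0483), while a second Hoxb8 probe set lay at 16.9 to 129.5. Hoxb6 had 711.3, 1041.4 and 1004.4 against 512.5, 697.9 and 712.0 (-0.47, adjusted p 0.126), and Hoxb7 523.5, 453.1 and 617.9 against 366.3, 388.1 and 369.3 (-0.42, adjusted p 0.147). The Hoxb7 groups did not overlap and those of Hoxb6 did by 1 pair of arrays.

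Hoxb5 lay below the filter with 581.5, 360.3 and 292.3 in wild type pools 1 to 3 and 99.7, 91.8 and 105.7 in LH transgenic pools 1 to 3. The LH transgenic arrays were all below background and well below the wild type arrays (-1.41, at least 1.26-fold lower, adjusted p 0.0122 in the test without the filter). Its paralogs Hoxa5, with 389.8 ± 16.1 and 224.2 ± 51.8 (-0.64), and Hoxc5, with 425.4 ± 23.9 and 213.7 ± 47.6 (-0.80), were above background on all wild type arrays and on none of the LH transgenic arrays. Hoxa5 and Hoxc5 were at least 1.25-fold and at least 1.36-fold lower, but were not called without the filter (adjusted p 0.1 and 0.0511). All 3 genes of paralog group 5 had lower signals on every LH transgenic array than on any wild type array. The same held for 25.2% of the 115 member probe sets and 15.0% of all probe sets but controls. None of the 3 passed the filter, and they were put together after their values were seen.

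Over all coding Hox probe sets, the sign differed between parts of the clusters. In paralog groups 4 to 8, 18 of 20 differences were below 0 (median -0.47) and 11 probe sets had lower signals without overlap, while 2 had higher ones. Over all probe sets but controls, 47.4% of differences were below 0, and 15.0% were lower and 16.4% higher without overlap. In groups 1 to 3, 3 of 6 were below 0 (median -0.13), and in groups 9 to 13, 8 of 12 were above 0 (median 0.03). This division was chosen after the values were seen, and it has no test. In groups 4 to 8, 9 of the 20 probe sets were above background in 1 group of mice or both, and in the other paralog groups none was. The order of values under the background level is uncertain. The members above 0 in groups 4 to 8 were the Hoxb8 probe set above and 1 of 4 Hoxa4 probe sets, 97747_r_at. That one had 2113.4, 2618.6 and 2070.5 against 2835.9, 2811.8 and 2666.7 (0.29, adjusted p 0.169), while the other 3 Hoxa4 probe sets had signals of at most 179.4. Both carry the suffix r, which Affymetrix gave to probe sets selected with relaxed rules. So does the bright Tnp1 probe set of the silent genes (group means 2478 and 3074). Hoxa4, Hoxb8 and Sox3 were above background only on probe sets of that kind. The tested Hoxa6 probe set, also of that kind, had 515.7 ± 220.0 and 239.9 ± 65.3 (-0.85, adjusted p 0.084).

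**Figure D4:**
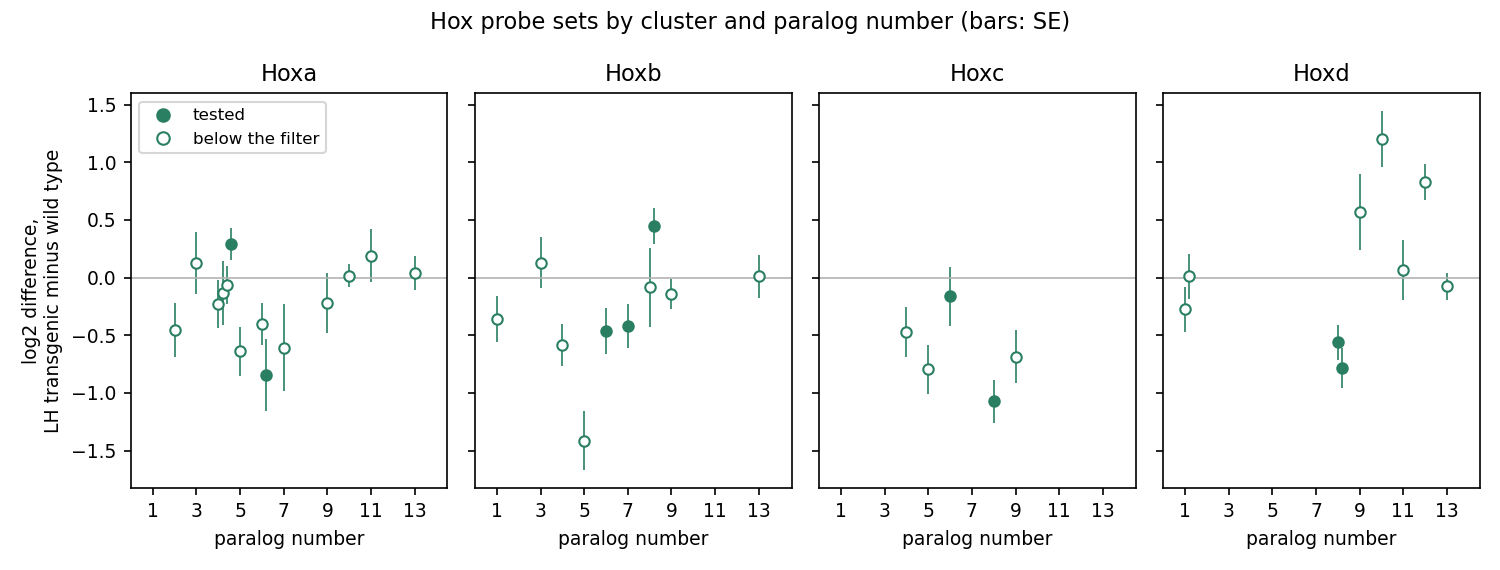
Log2 difference (LH transgenic minus wild type) of each coding Hox probe set by cluster and paralog number, with bars of 1 SE, filled where tested and open below the filter; probe sets of the same gene are set side by side. Paralogs 4 to 8 lie mostly below 0, and Hoxd9, Hoxd10 and Hoxd12 lie above it.

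The Hoxd genes of paralog groups 9 to 13 were dim and did not share a direction. Hoxd10 had 91.5, 139.6 and 87.4 in wild type pools 1 to 3 and 254.1, 362.0 and 436.4 in LH transgenic pools 1 to 3, above background on 2 arrays (1.20, at least 1.1-fold higher, adjusted p 0.0186 without the filter). Hoxd12 had 13.2, 16.0 and 27.5 against 125.7, 79.2 and 83.5, below background on every array, so that no fold is given. Hoxd9, whose probe set names the same source record as that of Hoxd10, had 218.6, 325.5 and 93.9 against 285.1, 424.7 and 292.7, which overlap (0.57, adjusted p 0.329 without the filter). Hoxd11 (0.07) and Hoxd13 (-0.07) overlapped between groups and were at most 112.0 and 32.8 on any array.

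The other Hox genes of paralog group 9 were dim. Hoxa9 had 92.6, 123.3 and 139.0 in wild type pools 1 to 3 and 37.5, 145.7 and 102.2 in LH transgenic pools 1 to 3, and Hoxb9 22.5, 38.2 and 40.2 against 19.0, 32.3 and 17.2. Neither was above background on any array. Hoxc6, a marker of thoracic position, had 390.2, 434.9 and 260.8 against 382.3, 225.1 and 335.8, which overlap (-0.16, 95% interval -0.74 to 0.41, adjusted p 0.694).

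Among the LIM homeobox genes Lhx6, known from tooth mesenchyme and forebrain interneurons, was lower. Its signals were 521.1, 543.8 and 714.5 in wild type pools 1 to 3 and 311.7, 366.6 and 227.7 in LH transgenic pools 1 to 3, without overlap. It fell by 0.82 (SE 0.22, adjusted p 0.0263). The call was lost without the filter (adjusted p 0.056) and without any one array other than LH transgenic pool 2 (-0.68 to -0.90, adjusted p 0.0522 to 0.105). Lhx8, which acts with Lhx6 in tooth development, had 573.2, 577.2 and 565.8 against 459.5, 369.0 and 289.2, all lower but not called (-0.54, adjusted p 0.0814). Lhx1, Lhx3, Lhx5 and Lhx9 were at most 298.5 on any array.

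Msx2, Tbx3 and the related Tbx2 were dim, and none of their probe sets was tested. Msx2, a target of bone morphogenetic protein signals, had 82.8, 328.8 and 212.0 in wild type pools 1 to 3 and 29.3, 35.3 and 47.7 in LH transgenic pools 1 to 3. Only 1 wild type array and no LH transgenic array was above background, so no fold is given, although the test without the filter called it (adjusted p 0.0483). Tbx3 had 205.6, 290.1 and 274.2 against 154.2, 140.1 and 136.9 (adjusted p 0.112 without the filter), below background on all 6 arrays, so that its order is uncertain. Its close relative Tbx2 had 181.4, 521.3 and 602.6 against 106.7, 126.0 and 90.5 on probe set 92705_at (-1.34, adjusted p 0.0514 without the filter). The other Tbx2 probe sets, with 333.9, 358.7 and 432.6 against 399.5, 214.1 and 171.2 and with 215.6, 136.9 and 187.6 against 290.8, 195.9 and 130.4, overlapped between groups.

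Msx1, the paralog of Msx2, was above background in both groups and was not called. It had 527.9, 656.4 and 656.2 in wild type pools 1 to 3 and 392.9, 524.4 and 528.9 in LH transgenic pools 1 to 3, which overlap by 1 pair of arrays (-0.31, 95% interval -0.73 to 0.12, adjusted p 0.283). Tbx6, a gene of paraxial mesoderm, had 825.9, 638.3 and 458.2 against 320.0, 533.5 and 396.0 (-0.53, adjusted p 0.162), also with overlap. Of 3 Tbx15 probe sets, for a factor of limb, skin and fat precursors, one was tested and had 395.9 ± 108.0 and 389.1 ± 23.3 (0.00, adjusted p 0.996). A second had 197.4 ± 64.2 and 54.7 ± 24.6 but lay below background on all 6 arrays. Its order is therefore uncertain, and it cannot show whether the probe sets of this gene disagree. All 9 Dlx probe sets were below the filter, with signals of at most 437.3.

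Of the Hox partners, Pbx2 had 1045.8, 1123.7 and 868.6 in wild type pools 1 to 3 and 1094.4, 1114.9 and 1072.4 in LH transgenic pools 1 to 3 (0.11, 95% interval -0.22 to 0.44, adjusted p 0.643). Of the 3 Pbx3 probe sets 2 were tested, with differences of -0.10 and -0.14, and neither was called. The Pbx groups overlapped for each probe set. Meis3 had 388.1, 396.6 and 396.0 against 298.2, 355.3 and 276.3, lower on every LH transgenic array but not called (-0.29, adjusted p 0.345). Meis1 and Meis2 lay below background on all arrays: Meis1 had 144.9, 142.5 and 130.6 against 130.6, 57.2 and 9.8, and Meis2 134.1 ± 36.9 against 33.2 ± 15.3.

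Among paired box genes only Pax4, known from the pancreas, was tested. It had 507.9, 373.7 and 477.4 in wild type pools 1 to 3 and 657.3, 840.2 and 560.6 in LH transgenic pools 1 to 3, without overlap but not called (0.52, SE 0.20, adjusted p 0.101). Pax5, the B cell factor, had 352.9, 326.0 and 67.3 against 548.9, 348.7 and 195.2 on one probe set and 28.7, 38.5 and 22.2 against 50.1, 31.2 and 20.7 on the other, with overlap in both. Of 7 tested probe sets of B cell markers 1 rose and 1 fell, with list means of -0.23 to 0.08 in wild type and -0.13 to 0.19 in LH transgenic glands. Six5, expressed in muscle among other tissues, had 756.2, 588.4 and 318.4 against 256.1, 487.6 and 320.0 (-0.52, adjusted p 0.269). One Six2 signal, 685.7 in wild type pool 2, stood out from 191.0 to 227.1 on the other 5 arrays. Pax7 and Tbx21 were not analysed here.

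Other genes of homeobox biology gave a background for these values. Of 17 tested probe sets of further homeobox genes, Meox2 (-1.46, adjusted p 0.00272), Zeb1 (-1.06, adjusted p 0.0014) and En1 (-0.96, adjusted p 0.0442) fell and Irx3 (0.60, adjusted p 0.0123) rose. Of 22 tested probe sets of Polycomb and trithorax genes, whose proteins keep Hox genes silent or active, Kdm6a (0.75) and Ezh2 (0.58) rose and Kmt2a fell on 1 probe set (-0.57, adjusted p 0.0411) but not on its other tested one (-0.06, adjusted p 0.839). The remaining probe sets of that list, 19 with that of Kmt2a, were not called. Of 23 probe sets for signals of the mammary placode and of branching, 6 rose and 6 fell. The largest falls there were those of the growth factor receptor gene Fgfr2 on 2 probe sets (-1.77 and -1.54), of Pth1r (-1.51), the receptor of the bud signal Pthlh, and of Fgfr1 (-1.04). The largest rises were those of Wnt5b (0.98, adjusted p 0.00257), Smad4 (0.77, adjusted p 0.0117) and Tfap2c (0.64, adjusted p 0.0478). Fibroblast and matrix markers fell in 11 of 17 tested probe sets, with list means of 0.10 to 0.46 in wild type and -0.54 to -0.18 in LH transgenic glands. The part of that shift in the values of Hox, Tbx and Meis genes, which are known from fibroblasts among other cells, was not tested.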

How the data were processed

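The authors deposited 1 intensity per probe set for each array, linear MAS5 signals per the submitters' processing notes. No MAS5 version or detection calls were given. MAS5 scales arrays to a common target, so a shift of most genes would not show. Of 12488 probe sets, 66 are controls, 10833 have 1 gene in the platform annotation, 396 several and 1193 none. Identifiers of 115 of 115 member probe sets were found in the RefSeq table of GRCm38.p6. Groups came from the labels, and replicate numbers are only names. The labels call the arrays separate pools of mice, so the spread includes pools and technique.

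The deposited signals were put on a log2 scale after adding 80.0 (their 20th percentile), which understates changes of dim genes. Probe sets whose mean reached 336.0 (the 40th percentile of means) entered limma (lmFit, eBayes with a trend, two-sided, Benjamini-Hochberg). The number of arrays limits precision. The fit was tested on simulated data.

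Members and lists were chosen with earlier results of these data known. By rule, the called members with their other probe sets, each family's brightest probe set if above background, and a list of known mammary or cell type genes are named, with up to 3 called genes from each list of other genes. Irx3, Wnt5b, Smad4, Tfap2c and further members were named after their values were seen. Alternatives were quantile normalization, median centring, 9 hybridisation controls as the scale (chosen after the data were seen), a floor of 16.8 without pseudocount, a pseudocount of 325.5, no filter or one at 1510.2, eBayes untrended or robust, muscle or lymphocyte marker levels in the fit, and single arrays left out. R 4.3.3 and limma 3.58.1 were used for tests, and Python 3.11.15 with pandas 2.3.3 for tables.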

Additional observations from a re-analysis of the deposited data

How the results depend on the processing

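Of 388 values of single named probe sets under the 17 other settings, 345 kept their direction and their side of the threshold, 27 lost a call, 8 gained one and 8 changed sign. Of the 11 called probe sets, those of Rhox5 and Hoxc8 and the first of Sox18 lost no call under any setting that gave a value. The stricter filter at 1510.2 tested 8 members, and gave no value for Rhox5, Hoxc8, Hoxd8, Sox7, Sox17 or Lhx6. With the bacterial hybridisation controls as the scale, 4025 of all probe sets were called (134 higher, 3891 lower), of these families 21 (19 lower), and the values of Sox10 100283_at (-0.22), Pbx2 (-0.53), Sox4 101430_at (-0.25), Hoxb8 96418_r_at (-0.19), Hoxa4 97747_r_at (-0.38) and Pax4 (-0.09) turned below 0. With the skeletal muscle covariate 741 were called (327 higher, 414 lower), of these families 4 (1 higher, 3 lower), and Sox17 92996_at had 0.14. With the stricter filter 531 of all were lower, and of these families 4 were called (2 lower). Without the filter 5 members were higher. Hoxc6 passed the filter in 3 of the 6 fits with 1 array left out and ranged there from -0.34 to 0.01, the latter without LH transgenic pool 2. With single arrays left out, the calls ranged from 948 to 1634 over all probe sets (443 to 739 higher, 505 to 895 lower) and from 7 to 10 over these families (2 to 4 higher, 4 to 7 lower). With the lower background level, 63 probe sets lay above it. The cause of these shifts was not tested, other than that a stricter filter tests fewer probe sets. No paired analysis was possible because the labels give no replicate numbers that the groups share. The number of arrays and signals near the background level of 312.4 limit these results.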
